A study of Homo sapiens with 11 samples.

Results

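The 4 ERBB receptors and 6 of their ligands were followed in liver tumours of human pancreatic cancer cells with and without knockdown of NPTX1, the gene of the secreted neuronal pentraxin 1. The genes were taken by symbol: EGFR, ERBB2, ERBB3 and ERBB4 as receptors, and AREG, EREG, TGFA, HBEGF, BTC and NRG1 as ligands. All 10 had a row among 23327 named rows of the authors' deposited table. The cells were PANC1 LM3, a generation 3 liver-metastatic derivative of PANC1, an established pancreatic ductal carcinoma line. They carried a control hairpin (shCTRL, labelled as wild type, 4 libraries) or 1 of 2 short hairpin RNAs against NPTX1 (shNPTX1_3 with 3 libraries and shNPTX1_4 with 4 libraries, labelled as NPTX1 knockdown). In every group 500000 cells went into the spleen at the start (day 1), and bulk RNA of the liver tumours collected on day 21 was sequenced. The host strain, the number of animals and whether each library is a separate animal are details not given in the sources used here. The p-values reflect only the spread between libraries, part of which may be technical. All groups derive from 1 cell line.

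ERBB receptors are cell-surface tyrosine kinases that act in pairs. EGFR, ERBB3 and ERBB4 bind ligands of the epidermal growth factor (EGF) family, ERBB2 has no known ligand of its own and serves as a partner, and ERBB3 has a weak kinase and signals through its partners. AREG, EREG, TGFA, HBEGF and BTC are made as membrane-anchored precursors that metalloproteases such as ADAM17 release, and they bind EGFR, with EREG, HBEGF and BTC also binding ERBB4. NRG1 binds ERBB3 and ERBB4. In pancreatic ductal carcinoma, EGFR signalling is known for feeding into the RAS-ERK pathway.

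The measurements are normalized counts, taken here as reads per gene divided by a size factor of each library. For many genes with more than 1 annotated transcript the means were not whole reads over those factors. ERBB3, ERBB4 and TGFA were among the genes without whole reads, and any further correction of the counts is a detail not given in the sources used here. The authors' deposited table gives their mean per group and 1 comparison (all 7 knockdown libraries against the 4 of shCTRL), with a log2 fold change, its standard error (SE) and a DESeq2 adjusted p. A gene is called where that adjusted p is under 0.05. Values of single libraries could be rebuilt as whole reads for AREG, BTC and NPTX1, and the other 8 receptors and ligands are given as group means with no SD. The libraries held an estimated 13000000 to 41200000 reads on genes with shCTRL, 10800000 to 24000000 with shNPTX1_3 and 16600000 to 26100000 with shNPTX1_4. NPTX1 itself was at 81.4, 89.9, 115 and 125 normalized counts in the shCTRL libraries, at 29.6, 37.2 and 72.6 in shNPTX1_3 and at 32.4, 36.0, 38.6 and 46.6 in shNPTX1_4. Every knockdown library lay below every control library, with the highest shNPTX1_3 library nearest to control (exact permutation test on log2 values with a pseudocount of 1, two-sided p = 0.00606, the smallest that 7 against 4 libraries allow). Of 8 markers fixed for the labelled pancreatic carcinoma cells, all had a mean of at least 10 normalized counts per the authors' deposited table, and keratin 8 (KRT8) had group means of 8293, 30512 and 14002. Of 12 hepatocyte markers 7 had a mean under 10, among them albumin (ALB) at 0.784, 0.616 and 0.284 per the authors' deposited table.

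All 5 ligands with an adjusted p were called, and 1 of the 4 receptors. Per the authors' deposited table, 5 of the 9 genes with an adjusted p rose in the knockdown tumours, namely AREG, EREG, NRG1, HBEGF and EGFR, and 1 fell, TGFA. Across all 18426 named genes tested per the authors' deposited table, 15.8% were called higher and 11.5% lower. ERBB2, ERBB3 and ERBB4 were not called, and BTC had no adjusted p. In bulk samples, more cells of a kind and more RNA per cell cannot be told apart. Of the 8 receptors and ligands of at least 2 CPM (CPM is a count scaled to the total, here the normalized counts and their mean total), both hairpins lay above control for 5 and below it for 1, ERBB4, beside 39.8% and 36.4% of all named genes of that level. TGFA, under 2 CPM, was also below control with both hairpins, and BTC had too few reads to compare. The median log2 fold change of the 9 tested genes per the authors' deposited table was 0.56, against -0.01 over all genes tested. These genes were picked for their place in 1 pathway, with earlier results of these data known, and are not a sample of the genome. The counts are therefore a description.

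**Figure D1:**
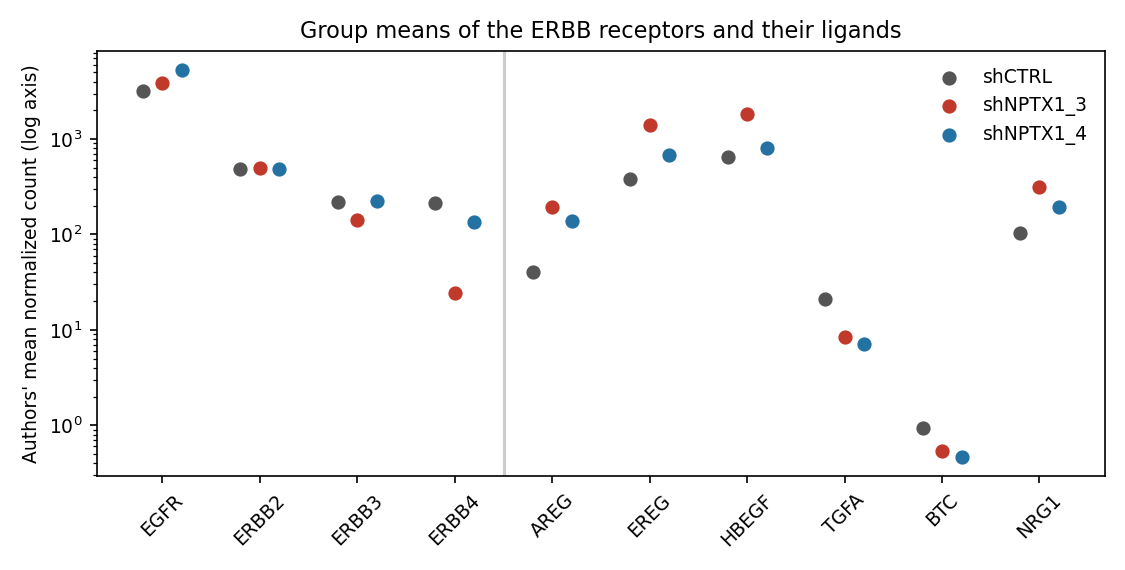
Authors' mean normalized count (vertical log axis) of each receptor (left of the grey line) and ligand (right) in shCTRL (grey), shNPTX1_3 (red) and shNPTX1_4 (blue), with no error bars because the values are group means. Both hairpins lie above control for AREG, EREG, HBEGF, NRG1 and EGFR and below it for TGFA and ERBB4, while BTC rests on 7 reads in all.

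AREG and EREG lie side by side on chromosome 4 in a run of EGF-family genes, between EPGN on one side and BTC on the other (gene order of RefSeq, GRCh38.p14). The 250 bases before the annotated start of each of these neighbours are shown, because AREG and EREG rose while EPGN was not called. BTC is shown for its place only, since it had too few reads to be assessed. Sequences are from RefSeq, build GRCh38.p14, read 5′ to 3′ on the strand of the gene, and the builds listed by the submitters differ, so positions are not those of the counting. Capitals mark matches to any of 7 motifs, searched on both strands. These were the AP-1 site TGANTCA, bound by FOS and JUN proteins, and the cAMP response element (CRE), TGACGTCA, bound by CREB and ATF proteins. The ETS motif was searched as CCGGAAG, the TATA box, a core promoter element, as TATAAA, and the GC box, bound by SP1 and its relatives, as GGGCGG. The TEAD motif was searched as GGAATG and the E-box, bound by MYC and USF proteins, as CACGTG. No 2 matches overlap in the windows shown.
EPGN, chr4:74308220-74308469, plus strand: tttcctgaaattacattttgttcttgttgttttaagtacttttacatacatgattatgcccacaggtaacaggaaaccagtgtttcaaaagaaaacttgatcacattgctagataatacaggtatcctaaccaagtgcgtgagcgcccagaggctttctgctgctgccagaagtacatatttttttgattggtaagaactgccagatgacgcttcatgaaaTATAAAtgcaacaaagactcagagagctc
EREG, chr4:74364895-74365144, plus strand: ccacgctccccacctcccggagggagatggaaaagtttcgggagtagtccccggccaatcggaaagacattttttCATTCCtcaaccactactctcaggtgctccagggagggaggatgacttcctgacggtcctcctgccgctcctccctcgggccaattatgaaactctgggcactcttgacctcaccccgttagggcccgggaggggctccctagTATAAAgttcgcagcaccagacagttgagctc
AREG, chr4:74444886-74445135, plus strand: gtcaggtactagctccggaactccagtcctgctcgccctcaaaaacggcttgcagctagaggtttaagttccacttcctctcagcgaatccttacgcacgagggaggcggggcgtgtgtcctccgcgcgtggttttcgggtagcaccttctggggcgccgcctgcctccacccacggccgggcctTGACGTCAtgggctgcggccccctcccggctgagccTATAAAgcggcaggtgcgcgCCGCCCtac
BTC, chr4:74794524-74794773, minus strand: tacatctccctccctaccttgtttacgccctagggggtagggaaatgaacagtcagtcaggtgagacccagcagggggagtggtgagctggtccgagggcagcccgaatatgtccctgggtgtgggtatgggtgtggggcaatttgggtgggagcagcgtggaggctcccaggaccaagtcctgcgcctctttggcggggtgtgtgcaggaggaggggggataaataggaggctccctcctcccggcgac
A TATA box starts 29 bases before the start of AREG, 32 before that of EREG and 29 before that of EPGN, and 10.7% of 35116 promoters of the same length hold one. The AREG window also holds a CRE that begins 65 bases before the start, a motif in 1.65% of promoters, and a GC box 9 bases before it, a motif in 42.6%. The EREG window has a TEAD match 175 bases before the start (11.9% of promoters). No motif of the 7 was found in the BTC window. Of the 10 receptors and ligands, 8 had an entry (not ERBB3 and NRG1), and 5 of these 8 held a GC box, 2 a TATA box and 1 a CRE. AREG was the one with the CRE. A match is a description of letters, not of binding.

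AREG, amphiregulin, a low-affinity EGFR ligand, rose most. In the shCTRL libraries it stood at 29.1, 30.4, 40.0 and 63.2 normalized counts, from 24 to 79 reads. With shNPTX1_3 it stood at 166, 178 and 245 normalized counts, and with shNPTX1_4 at 86.0, 120, 162 and 179. All 7 knockdown libraries were above all 4 control libraries, and the hairpins overlapped each other. The mean was 40.7 ± 15.8 (SD, n = 4) in shCTRL, 196 ± 42.3 (SD, n = 3) in shNPTX1_3 and 137 ± 41.9 (SD, n = 4) in shNPTX1_4. The log2 fold change of AREG per the authors' deposited table was 2.03 with an SE of 0.27 (DESeq2 adjusted p = 3.71e-12), or 4.09-fold.

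Over the single libraries, AREG was higher in knockdown than in control by 1.98 on the log2 scale with a pseudocount of 1 (exact permutation test, two-sided p = 0.00606, the smallest that 7 against 4 libraries allow). Each hairpin was also compared with control alone. The difference was 2.29 for shNPTX1_3 (exact permutation p = 0.0571, the smallest that 3 against 4 allow) and 1.74 for shNPTX1_4 (exact permutation p = 0.0286, the smallest that 4 against 4 allow). Between the hairpins the difference was 0.55 in the direction of shNPTX1_3 (exact permutation p = 0.171). Adjusted over these 3 comparisons (Benjamini-Hochberg), the p-values were 0.0857, 0.0857 and 0.171 by exact permutation. With groups this small no adjusted value under 0.05 was possible, so these tests could not decide for a single hairpin. The libraries of each hairpin did not overlap those of control. The genome build hg19, which the submitters list, carries a near-identical copy of AREG named AREGB. The authors' deposited table has 0 rows of that name, and how reads shared with the copy were counted is a detail not given in the sources used here. The level of AREG is therefore uncertain.

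**Figure D2:**
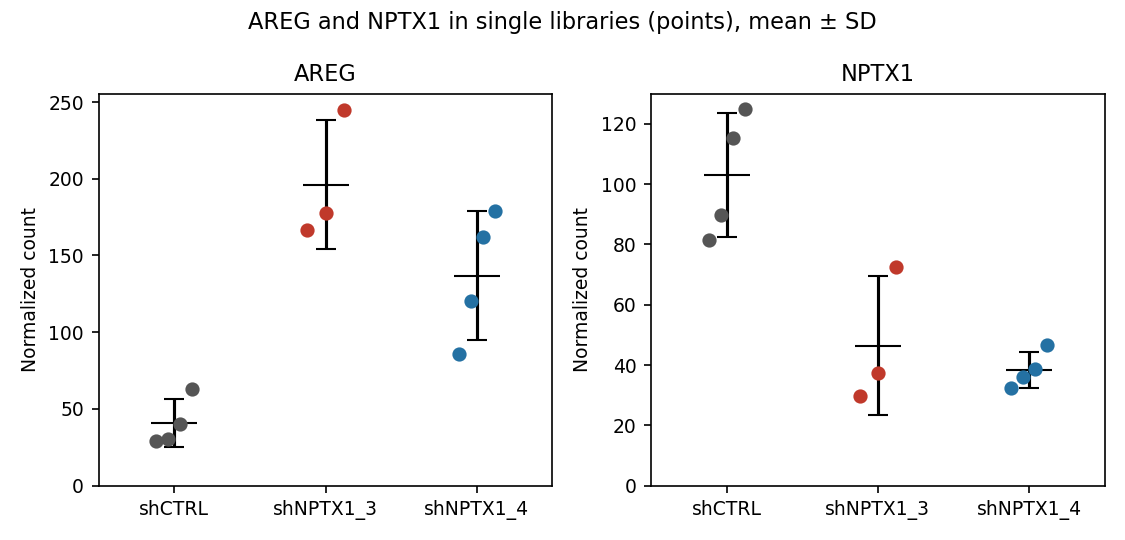
Normalized counts of AREG (left) and NPTX1 (right) in single libraries rebuilt from the group means (points), with the mean (horizontal line) and SD (bars) of each group. The shCTRL libraries of AREG sit between 29.1 and 63.2 and all knockdown libraries at 86.0 or above, while NPTX1 runs the other way, with 1 shNPTX1_3 library at 72.6.

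EREG, epiregulin, a ligand of EGFR and ERBB4, also rose. Its group means per the authors' deposited table were 379 normalized counts for shCTRL, 1393 for shNPTX1_3 and 683 for shNPTX1_4. Both hairpins lay above control, shNPTX1_3 at 3.67-fold and shNPTX1_4 at 1.80-fold by the group means of the authors' deposited table. The log2 fold change of EREG per the authors' deposited table was 1.38 with an SE of 0.25 (DESeq2 adjusted p = 9.02e-07).

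Of the genes beside this pair, EPGN, epigen, another EGFR ligand, had group means of 72.3, 60.8 and 61.5 normalized counts and was not called per the authors' deposited table (log2 fold change -0.25, DESeq2 adjusted p = 0.315). BTC, betacellulin, was barely detected: 4 reads in the 4 shCTRL libraries together, 1 read in shNPTX1_3 and 2 reads in shNPTX1_4. At that depth no difference in BTC could be detected, and no fold is given. Farther out, PARM1, on the other side of BTC, rose from 4.04 to 19.1 and 9.54 normalized counts per the authors' deposited table (log2 fold change 1.85, SE 0.50, DESeq2 adjusted p = 0.00201). The chemokine genes CXCL2 and CXCL3 and the mitochondrial folate enzyme gene MTHFD2L on the EPGN side, and RCHY1 and THAP6 on the PARM1 side, were not called per the authors' deposited table. CXCL2 had group means of 727, 1565 and 533 normalized counts per the authors' deposited table. PARM1 and these neighbours were listed by their place beside AREG.

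NRG1, neuregulin 1, the ligand of ERBB3 and ERBB4, had group means of 103 normalized counts for shCTRL, 314 for shNPTX1_3 and 192 for shNPTX1_4 per the authors' deposited table. It rose by 1.24 on the log2 scale per the authors' deposited table (SE 0.24, DESeq2 adjusted p = 7.11e-06), with shNPTX1_3 at 3.05-fold and shNPTX1_4 at 1.87-fold of control. NRG1 makes many isoforms from different starts, with 18 coding transcripts annotated in GENCODE 29, and a count per gene does not separate them.

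HBEGF, heparin-binding EGF-like growth factor, a ligand of EGFR and ERBB4, had group means of 641, 1839 and 805 normalized counts per the authors' deposited table. Most of its difference was in shNPTX1_3, at 2.87-fold of control against 1.26-fold with shNPTX1_4. Its log2 fold change per the authors' deposited table was 0.96 with an SE of 0.38, and the DESeq2 adjusted p of 0.0458 was the nearest to the threshold of the 6 called genes. The call was lost when every group was scaled to 1 common total (DESeq2 Wald statistic, adjusted p = 0.0641) and with adjustment over every gene with a p (adjusted p = 0.0541). Over all settings the adjusted p of HBEGF from the DESeq2 statistic ran from 0.0384 to 0.0641.

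TGFA, transforming growth factor alpha, a high-affinity EGFR ligand, was the only one of the 6 ligands followed here that was called lower. At 0.649 CPM over all libraries it was a low-count gene. Its group means per the authors' deposited table were 20.8 normalized counts for shCTRL, 8.52 for shNPTX1_3 and 7.20 for shNPTX1_4. The log2 fold change of TGFA per the authors' deposited table was -1.42 with an SE of 0.34 (DESeq2 adjusted p = 4.13e-04), and both hairpins were below control, at 0.409-fold and 0.345-fold.

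All 5 ligands with an adjusted p had a higher group mean with shNPTX1_3 than with shNPTX1_4 per the authors' deposited table, as did 47.5% of all genes tested. For AREG that difference lay within the spread of the libraries, and for the others it was not tested. Some markers of cell types moved beside the ligands. Of the 8 carcinoma cell markers 5 were called higher and 1, SOX9, lower per the authors' deposited table, beside 15.8% and 11.5% of all genes tested. EPCAM and VIM were not called. Keratin 19 (KRT19), with the largest log2 fold change of these 8, had group means of 1272, 8180 and 4803 normalized counts. Of 7 leukocyte and 5 endothelial markers tested, 0 were called by DESeq2 (at an unadjusted p under 0.05, 1 endothelial marker was lower). Their summed group means were 867, 932 and 767 normalized counts for leukocyte markers and 381, 430 and 384 for endothelial markers. Among 8 fibroblast and stellate cell markers the summed group means were 1742, 6525 and 3466 normalized counts per the authors' deposited table. That order of groups, the same as for AREG, EREG, HBEGF and NRG1, came mostly from COL3A1 (731, 5517 and 2247 normalized counts). LUM (8.09, 24.1 and 13.3), RGS5 (65.2, 91.4 and 83.7) and DCN (2.41, 4.27 and 3.37) shared that order at lower counts. COL1A1 (725, 701 and 1019), COL1A2 (74.3, 17.8 and 17.5), ACTA2 and PDGFRB did not. COL1A2 was not called (log2 fold change -2.10, DESeq2 adjusted p = 0.0559). ACTA2 and PDGFRB were not called either, with negative log2 fold changes. Of these markers 2, COL3A1 and LUM, were called higher and 0 lower by DESeq2 (3 and 1 at an unadjusted p under 0.05). None was at 0, COL3A1 was the most abundant with either hairpin, and the fibroblast markers DCN and PDGFRB had means under 10. The sum of 12 hepatocyte markers was 95.4, 192 and 105 normalized counts per the authors' deposited table. Of the 5 hepatocyte markers tested 2 were called higher by DESeq2, the apolipoprotein gene APOA1 (log2 fold change 1.77, adjusted p = 0.00820) and the transferrin gene TF (1.04, adjusted p = 0.0180), and 0 lower (2 and 0 at an unadjusted p under 0.05). The part of other cell types, and of mouse reads, in the ligand values was not tested.

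**Figure D3:**
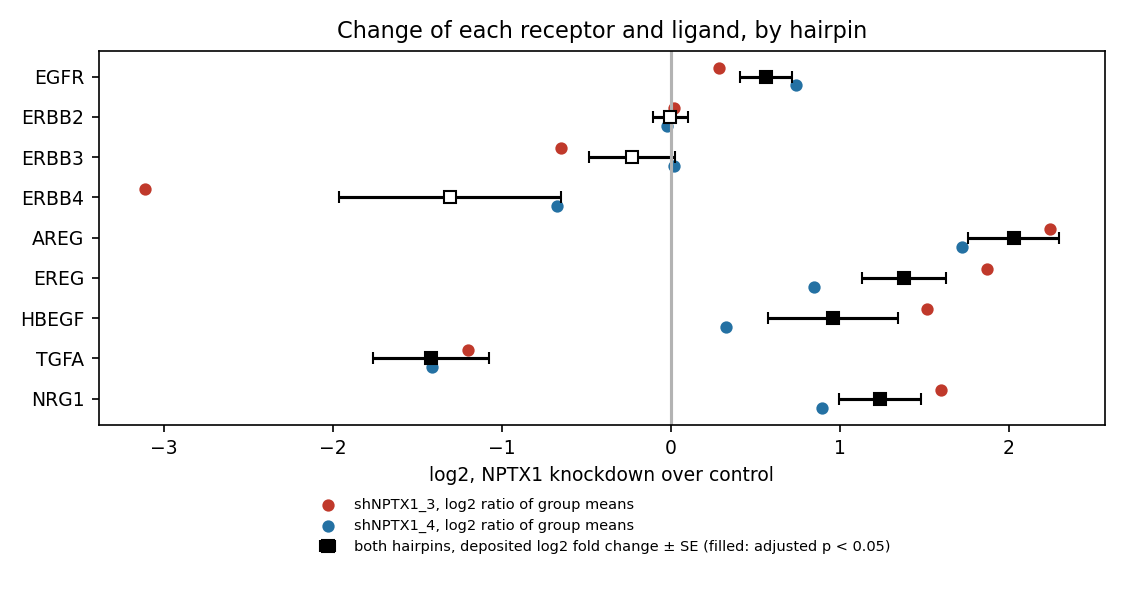
Log2 fold change of each receptor and ligand except BTC, knockdown over control, per the authors' deposited table (squares, bars are the SE, filled where the DESeq2 adjusted p is under 0.05), with the log2 ratio of group means to control of shNPTX1_3 (red) and shNPTX1_4 (blue) at a pseudocount of 1. AREG lies farthest to the right, with 2.24 and 1.73 for the hairpins, and ERBB4 has the widest gap between hairpins, with -3.11 and -0.67.

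Among the receptors, EGFR was called higher. It had group means of 3157 normalized counts for shCTRL, 3848 for shNPTX1_3 and 5283 for shNPTX1_4 per the authors' deposited table, so here shNPTX1_4 lay farther from control. EGFR rose by 0.56 on the log2 scale per the authors' deposited table (SE 0.15, DESeq2 adjusted p = 0.00172), or 1.48-fold, with a 95% interval of 1.20- to 1.82-fold from that SE. The antisense gene EGFR-AS1, which overlaps EGFR on the other strand, had group means of 166, 166 and 223 normalized counts and was not called per the authors' deposited table (DESeq2 adjusted p = 0.285). Strand-specific counting is a detail not given in the sources used here, and counts from the overlap of EGFR and EGFR-AS1 are therefore uncertain.

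ERBB2, the partner receptor without a ligand, had group means of 490.0, 497 and 482 normalized counts per the authors' deposited table. Its log2 fold change per the authors' deposited table was -0.00 with an SE of 0.11, and the 95% interval ran from 0.865- to 1.15-fold. MIEN1 and PGAP3, which overlap ERBB2 on the other strand in GENCODE 29, were not called per the authors' deposited table. ERBB3 had group means of 220, 140 and 223 normalized counts and a log2 fold change of -0.23 with an SE of 0.25 per the authors' deposited table (DESeq2 adjusted p = 0.529). For ERBB3 shNPTX1_3 lay at 0.636-fold of control and shNPTX1_4 at 1.01-fold, which total scaling turns to -0.03 on the log2 scale.

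ERBB4 had group means of 216 normalized counts for shCTRL, 24.1 for shNPTX1_3 and 135 for shNPTX1_4 per the authors' deposited table. The shNPTX1_3 mean was 0.111-fold of control and 0.178-fold of shNPTX1_4. The log2 fold change of ERBB4 per the authors' deposited table, -1.31, had an SE of 0.66, the widest of the 9 tested genes, and was not called (p = 0.0469, DESeq2 adjusted p = 0.125). That comparison joins the hairpins into 1 group, the libraries behind the ERBB4 means were not rebuilt, and the difference between the hairpins was not tested.

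Levels were set against each other per kb of annotated exons (the union of exons in GENCODE 29, an approximation since the annotation used for counting is a detail not given in the sources used here). In shCTRL, the level in normalized counts per kb was 252 for EGFR and 212 for HBEGF, followed by 66.3 for EREG and 47.5 for ERBB2. AREG at 24.7, ERBB3 at 24.4 and ERBB4 at 16.6 normalized counts per kb came next, then NRG1 at 9.09, TGFA at 4.20 and BTC at 0.330. By the length of the longest coding transcript, EREG (82.1) and AREG (32.8) fell behind ERBB2 (102) and ERBB3 (37.2), so the order of these neighbours rests on the length used. With shNPTX1_3 the HBEGF level of 609 normalized counts per kb was above the 307 of EGFR, while with shNPTX1_4 EGFR at 422 was above HBEGF at 267. The AREG level went from 24.7 normalized counts per kb in shCTRL to 119 and 83.0 in the knockdown groups, above ERBB2 at 48.2 and 46.7. Without single libraries for the other genes, it cannot be said which neighbours in this order differ beyond their spread.

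The genes nearest to AREG in their pair of log2 ratios to control, over 3 group means and 4584 other called genes of at least 2 CPM, were the epithelial transcription factor gene ELF3 at a distance of 0.04, ZG16B at 0.08 and GALNT18, a glycosyltransferase gene, at 0.21. ELF3 had group means of 98.1, 457 and 323 normalized counts per the authors' deposited table.

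Other genes of the pathway were taken from 7 lists with 99 genes, all tested. By the authors' deposited table, 13 were called higher and 18 lower, 31.3% in all, beside 27.3% of all genes tested. Scaling every group to 1 common total gave 10 higher and 24 lower, beside 11.6% and 16.4% of all genes (27.9% in all). The median log2 fold change of these 99 genes per the authors' deposited table was -0.04, against -0.01 over all genes. Of the called pathway genes, MMP1 alone had a larger absolute log2 fold change than AREG.

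Of the other EGF-family ligands EGF, EPGN, NRG2, NRG3 and NRG4, 1 of 5 fell and 0 rose per the authors' deposited table by DESeq2 (1 and 0 at an unadjusted p under 0.05). That is 20% called, beside 27.3% of all genes tested. NRG4, a ligand of ERBB4, went from 56.0 to 20.1 and 28.0 normalized counts per the authors' deposited table (log2 fold change -1.12, DESeq2 adjusted p = 0.00927). Of 12 sheddases and their regulators, 2 rose and 0 fell by DESeq2 per the authors' deposited table (3 and 1 at an unadjusted p under 0.05, and 1 and 1 by total scaling): the metalloprotease gene ADAM15 by 0.49 and the rhomboid protease gene RHBDL2 by 0.40 on the log2 scale. The call of RHBDL2 was lost under total scaling, where ADAM10 was called lower instead. In the deposited comparison 16.7% of these 12 genes were called, beside 27.3% of all genes tested.

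Of 21 adaptors and effectors next to the receptors, 3 rose and 4 fell per the authors' deposited table. That is 33.3% called, beside 27.3% of all genes tested. PLCG2, a phospholipase C, fell most, by 1.39 on the log2 scale per the authors' deposited table, followed by the docking protein gene GAB1, which fell by 0.94, while EPS8, an EGFR substrate, rose by 0.53 and the adaptor gene GRB10 rose by 0.49. The rise of GRB10 lay with shNPTX1_4 (group means of 710, 733 and 1194 normalized counts for shCTRL, shNPTX1_3 and shNPTX1_4). GRB10 lost its call under total scaling.

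Of 18 genes listed for a part in the control of receptor levels or activity, 2 rose and 5 fell per the authors' deposited table. That is 38.9% called, beside 27.3% of all genes tested. The list does not separate genes that lower receptor levels from those that may keep them up. LRIG1, a transmembrane protein that promotes breakdown of ERBB receptors, rose by 1.24 on the log2 scale per the authors' deposited table, from 282 to 980.3 and 428 normalized counts (SE 0.35, DESeq2 adjusted p = 0.00283). Its relative LRIG3 rose by 0.88 per the authors' deposited table, from 315 to 683 and 505 normalized counts. The late endosome GTPase gene RAB7A fell by 0.65 and the ubiquitin ligase gene NEDD4 fell by 0.59 per the authors' deposited table.

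In the RAS-RAF-MEK-ERK core 3 of 14 genes rose and 3 fell per the authors' deposited table (2 and 4 by total scaling). In the deposited comparison that is 42.9% called, beside 27.3% of all genes tested. KSR1, a scaffold of the cascade, fell by 0.52, and NF1, a RAS GTPase-activating protein, fell by 0.44, while the kinase genes ARAF and MAP2K1 rose by 0.42 and 0.33 on the log2 scale per the authors' deposited table. Of 11 feedback inhibitors of ERK, 1 rose and 3 fell per the authors' deposited table, or 36.4% called beside the same 27.3%. DUSP4, a nuclear phosphatase of ERK, rose by 1.70 (45.5 to 176 and 125 normalized counts per the authors' deposited table), while SPRY4, DUSP7 and SPRED3 fell by 0.58, 0.45 and 0.36 on the log2 scale per the authors' deposited table.

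Of 18 ERK-responsive transcripts, 2 rose and 2 fell per the authors' deposited table, or 2 and 6 by total scaling. The share called in the authors' deposited table was 22.2%, beside 27.3% of all genes tested. The collagenase gene MMP1 rose by 3.52 with an SE of 0.74 on the log2 scale per the authors' deposited table, and the stress-response gene IER3 rose by 0.94. The ephrin receptor gene EPHA4 fell by 1.01, and CCND1, which encodes cyclin D1, fell by 0.55 on the log2 scale per the authors' deposited table. FOS, FOSL2, ETV4 and ETV5 were called lower under total scaling alone.

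**Figure D4:**
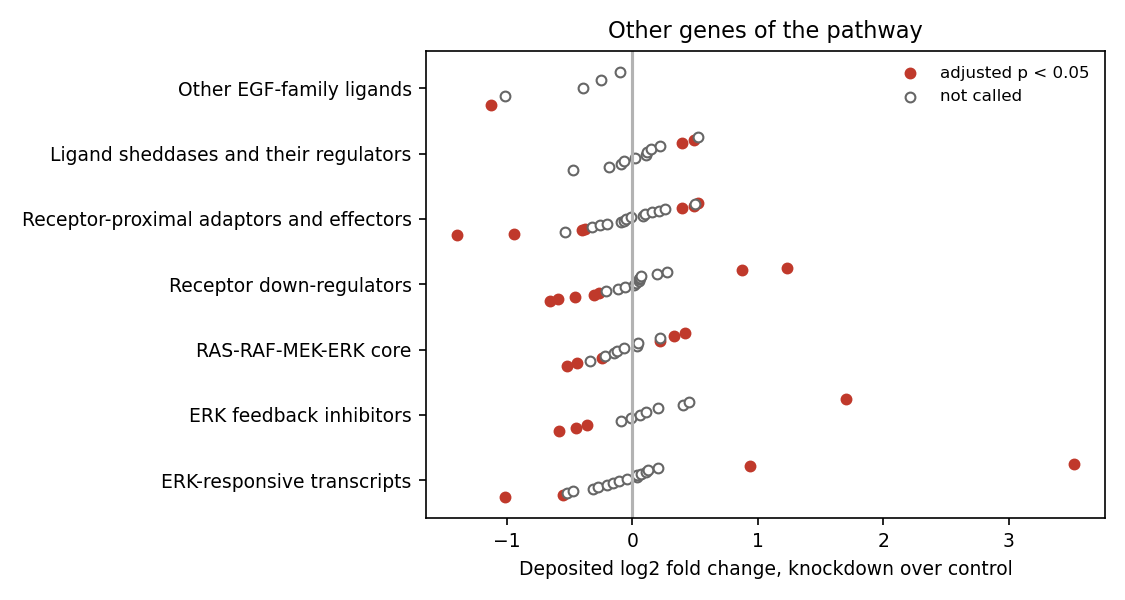
Log2 fold change per the authors' deposited table (horizontal axis) of the genes of 7 pathway lists, with genes of a DESeq2 adjusted p under 0.05 in red and the others open. Each list but the other EGF-family ligands and the sheddases has called genes on both sides of 0, and MMP1 (3.52), DUSP4 (1.70) and LRIG1 (1.24) lie farthest to the right.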

How the data were processed

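Per the labels' protocols, total RNA came from a Norgen purification and libraries from the TruSeq RNA kit (version 2). Per the submitters' processing notes, the tools were DESeq2 1.24, featureCounts 2.0.0, STAR 2.7.6a and MultiQC 1.9 and the builds hg19 and mm39, with no roles. Whether mouse reads were removed is not given there. Per the file headers, the deposited values are a mean signal per group and over all libraries, a log2 fold change, the standard error of that change, a Wald score, a p-value and an adjusted p-value. The mean signal was taken here as counts divided by size factors. Of 23434 rows, 107 were left out (no name, a date or a repeated name, 0.387% of the normalized counts).

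The file holds group means, so the authors' own deposited comparison stands in for the planned edgeR test. A log2 ratio of each hairpin to control used a pseudocount of 1. Whole reads were rebuilt where a group mean is a sum of whole multiples of the value of 1 read in each library. In shNPTX1_3, 97.6% of 1267 means under 10 of genes with 1 annotated transcript were such sums, 47.1% of 2552 for genes with more, and 0% of values moved by 0.01%. Where several combinations were left, the one that returned the deposited log2 fold change in a negative binomial model was kept. The dispersion (spread parameter) of that model was solved from the deposited standard error, so the match rests on the log2 fold change. For AREG, 42 combinations were tried, and the best differed from the deposited log2 fold change by 3.73e-08 and the next by 2.36e-04. On 88 low genes with 1 solution the largest difference was 6.12e-06. Tested on simulated data, 168 of 200 genes were rebuilt and 0 wrongly. Which label belongs to which rebuilt library is unknown. ERBB3, ERBB4 and TGFA gave no whole reads, and EGFR, ERBB2, EREG, HBEGF and NRG1 were too high.

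The genes and lists were chosen with earlier results of these data known. In each list up to 4 called genes with the largest absolute log2 fold change were named, and the genes nearest to AREG were those at the smallest Euclidean distance. Python 3.11.15, scipy 1.17.1 and pandas 2.3.3 were used.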

Additional observations from a re-analysis of the deposited data

How the results depend on the processing

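Of the receptors and ligands, 5 were called higher and 1 lower. When every group was scaled to 1 common total, with no filter on low counts, or at an adjusted p under 0.01, 4 were called higher, HBEGF being lost each time, and TGFA was called lower. With only genes of at least 2 CPM adjusted again, 5 were called higher and 0 lower (DESeq2 p-values), because TGFA, at 0.649 CPM, was not among the genes tested. By group means alone, 3 of the 10 genes were below control in both hairpins, TGFA, ERBB4 and BTC (too few reads to compare), and 5 under total scaling, which lowers the log2 ratio of shNPTX1_3 by 0.09 and that of shNPTX1_4 by 0.04 and so adds ERBB2 and ERBB3. Pseudocounts of 0.1 and 5 left these counts at 5 above and 3 below. Total scaling lowers the ratios of all genes, and the share of all genes below control with both hairpins under it was not computed. The change from 3 to 5 is therefore not a result about these genes. The pathway genes called higher ranged from 10 to 13 and those called lower from 13 to 24 over the settings. Leaving out each of the 11 libraries in turn, the log2 difference of AREG between knockdown and control ranged from 1.84 to 2.21, a check chosen after seeing the data. The exact permutation p ran from 0.00952 to 0.0167. Because the knockdown and control libraries do not overlap, each was the smallest its group sizes allow, so these p-values reflect group size alone. The deposited comparison could not be recomputed without a library. No paired analysis was possible because the file holds group means and the rebuilt libraries carry no replicate number. Depth limited BTC, with 7 reads in all, and the groups of 3 and 4 libraries limited the permutation tests of single hairpins.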
